A study of Mus musculus with 12 samples.

Results

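The genes described here encode the ionotropic and metabotropic glutamate receptors and the auxiliary subunits of AMPA receptors, 32 of the 24421 gene symbols counted in polyribosomal RNA of the mouse hippocampus. They were taken by symbol from a fixed list of 4 AMPA, 7 NMDA, 5 kainate, 1 delta and 6 metabotropic receptor genes and 9 auxiliary subunit genes. All 32 symbols were present in the count files, and 31 passed the filter on low counts. The exception was Grin3b, an NMDA receptor subunit gene, which had between 0 and 8 counts in any library.

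Glutamate is the main excitatory transmitter of the hippocampus. AMPA receptors carry the fast component of excitatory transmission, NMDA receptors pass calcium when glutamate binding and depolarisation coincide, kainate receptors modulate transmission and excitability, and the metabotropic receptors act through G proteins. AMPA receptors are assembled with auxiliary proteins, among them the transmembrane AMPA receptor regulatory proteins (TARPs, encoded by Cacng genes), the cornichons (Cnih2 and Cnih3) and Shisa9, which set their trafficking and gating. Changes in the number and composition of AMPA and NMDA receptors at synapses are the best studied mechanism of hippocampal plasticity.

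Both groups were C57/Bl6 mice of 6 weeks, housed singly before the experiment, and no genetic alteration or drug is named in the labels. The labels divide 12 hippocampal libraries into 6 named control and 6 named fear case. The same protocol text accompanies every library: 8 min in an unfamiliar context, then 7 min in the home cage, with the tissue taken at 15 min. It does not say how the control mice were handled or whether a shock was given, and it does not say that every numbered library came from its own mouse. If some did not, the p-values below measure only the spread between these samples, which may be technical. RNA was taken from the pellet of a 1 M sucrose cushion, which holds ribosome-bound RNA and other RNA that sediments with it. Total RNA of the same homogenates was not analysed here, so transcript amount and ribosome loading cannot be told apart. In bulk tissue, fewer cells of a type and less RNA per cell cannot be told apart either.

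The 4 AMPA subunit genes show how close these paralogs are and what gene counts do not resolve. Each stretch below holds 45 coding bases of the pore loop from the GENCODE vM21 transcripts (GRCm38), 5′ to 3′ in the sense of the transcript. The codon of the glutamine/arginine site is in capitals. In Gria2 the adenosine of this codon is normally edited in the RNA, which exchanges glutamine for arginine and closes the channel to calcium.
Gria1: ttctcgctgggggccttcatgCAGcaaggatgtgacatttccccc
Gria2: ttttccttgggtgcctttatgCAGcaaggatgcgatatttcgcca
Gria3: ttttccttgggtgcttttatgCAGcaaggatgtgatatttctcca
Gria4: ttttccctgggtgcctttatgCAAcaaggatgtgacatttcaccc

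The stretches lie in coding exons at chr11:57243073-57243117 on the plus strand (Gria1, exon 11), chr3:80706890-80706934 on the minus strand (Gria2, exon 11), chrX:41610244-41610288 on the plus strand (Gria3, exon 11) and chr9:4464116-4464160 on the minus strand (Gria4, exon 12). Against Gria2, the stretch differed at 9 of 45 bases in Gria1, at 3 in Gria3 and at 6 in Gria4. Counts per gene add edited and unedited transcripts together, so the values of Gria2 below say nothing of editing. The same holds for the flip and flop splice forms of all 4 genes.

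A second stretch was compared because it is common to nearly all the ionotropic genes of the list. The 27 bases coding for the conserved motif of the third membrane segment, which lines the channel gate, were found in 15 of the 17 ionotropic members and not as an exact match in Grin3a or Grin3b. Capitals mark bases that differ from Gria1.
Gria1: tcatacacagccaacctggctgccttc
Gria2: tcCtacacGgcTaacTtAgctgccttc
Grin1: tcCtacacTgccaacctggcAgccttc
Grik2: tcGtaTacCgcTaacctAgcCgccttT
Grik3: tcCtacacGgccaacctggctgccttc
Grik5: tcCtacacGgccaacctggctgccttc

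The search required the same protein motif, and 15 of the 27 bases were identical throughout. Grik3 (chr4:125694042-125694068) and Grik5 (chr7:25015919-25015945) had the same 27 bases, the only identical pair among 105 pairs, and the pairs differed at up to 10 bases. The other stretches shown lie at chr11:57283571-57283597 (Gria1), chr3:80702569-80702595 (Gria2), chr2:25297199-25297225 (Grin1) and chr10:49240690-49240716 (Grik2). Words of 40 bases, the read length, were almost entirely specific to one AMPA subunit gene. Of the 40-base words in the longest coding transcript, 0.018% in Gria1, 0.165% in Gria2, 0.078% in Gria3 and 0.204% in Gria4 occurred in a transcript of another gene.

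The depth was 18.6 M to 44.2 M assigned counts (median 21.6 M), with fear case 6 the deepest library. For the members, control 1 and fear case 6 stood furthest apart as high and fear case 1 as low. Results without each are given further on. Levels are given as CPM, the count scaled by library size with TMM factors. The factor of fear case 6 was 0.908, against 0.971 to 1.03 in the other libraries, and its part was not tested. Levels of different genes are compared only as CPM per kilobase of merged exons. The summed level of 8 markers of hippocampal excitatory neurons was 5362 to 5995 CPM in the controls and 4913 to 5801 CPM in fear case, led by Camk2a with a mean of 2492 CPM. Of 8 choroid plexus markers, led by Ttr with a mean of 723 CPM, all 8 had a negative log2 fold change and none was called. Their sum ranged from 748 to 2172 CPM in the controls and from 24 to 1477 CPM in fear case. Of 7 cortex and striatum markers 5 were negative and 1, Ppp1r1b, was called. That sum was lower in every fear case library (174 to 199.7 CPM) than in any control (200.6 to 212 CPM). The 5 cerebellar markers together stayed between 1.07 and 3.64 CPM in all 12 libraries. None of the markers in these lists was at 0 in all 12 libraries. A choroid plexus score was added to the fit as one alternative, and values that it moved are given below and in the closing section. The part of the other marker lists was not tested.

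None of the glutamate receptor or auxiliary genes passed the test between the groups. Of the 31 tested members, 0 were called higher and 0 lower with edgeR's quasi-likelihood test at an adjusted p under 0.05, against 15 of 14564 genes, or 0.103%, among all genes tested (7 or 0.0481% higher, and 8 or 0.0549% lower). DESeq2 and limma-voom also called 0 members. The count over all genes was 128 without fear case 6 and 9 without control 3 or fear case 2, and members called remained at 0 in each. The activity genes Fos, Npas4 and Arc had log2 fold changes of 2.25, 2.06 and 0.80 in the same fit, with adjusted p of 1.1e-05, 3.0e-07 and 3.6e-04. At an unadjusted p under 0.05 there was 1 member, Grik2, and 7.14% of all genes. In 0 members did the 2 groups separate completely, which 0.268% of all genes did with fear case higher and 0.33% with fear case lower. The median log2 fold change was 0.031 over the 31 members and -0.0046 over all genes tested, with 18 members positive and 13 negative. The members' log2 fold changes ran from -0.30 (Grin2d) to 0.22 (Grik2).

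The precision of the fit to all 12 libraries without covariates allows a bound on each gene. The 95% interval of the log2 fold change lay wholly within a 1.5-fold change in either direction for 29 of the 31 members, and for 10899 of all 14564 genes tested, or 74.8%, which include less abundant genes. For Grin2d and Cacng4 its lower end passed that bound. It excluded 0 only for Grik2. The median standard error was 0.098 for the members and 0.095 for all 10746 genes tested within the members' range of mean CPM. The bound was not set for other fits. With the choroid plexus score added, Grik1 stood at 0.35 (SE 0.22) and Grin2c at 0.22 (SE 0.30). Without control 1, Grin2c stood at 0.41 (SE 0.16).

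**Figure D1:**
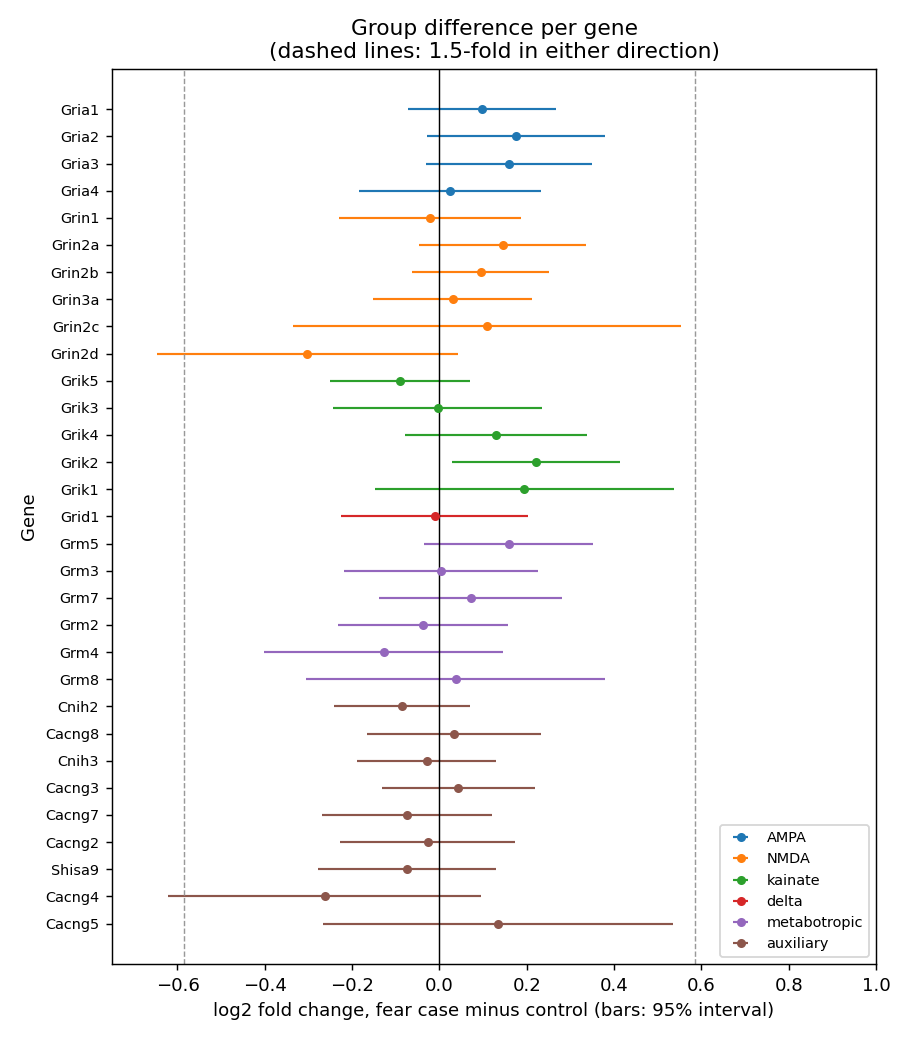
Log2 fold change of fear case over control for the 31 tested genes (horizontal axis), grouped by class and colour, with bars for the 95% interval from edgeR's quasi-likelihood fit. The dashed lines mark 1.5-fold in either direction; only Grik2 has an interval that leaves out 0, and only Grin2d and Cacng4 reach past a dashed line.

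The AMPA subunits were the most abundant receptor class, and all 4 had a positive log2 fold change that did not pass. Without fear case 6 the 4 values, from Gria1 to Gria4, were 0.054, 0.11, 0.086 and -0.053. Gria1, which encodes the subunit GluA1 whose phosphorylation and insertion accompany potentiation, stood highest of all receptor genes at 127 ± 14 CPM per kilobase (mean ± SD, n = 12). Its level was 650.2 to 892 CPM (median 729) in the controls and 688 to 906 CPM (median 779.9) in fear case. Only fear case 6 exceeded every control, and the groups otherwise overlapped. The log2 fold change was 0.098 (SE 0.082, 95% interval -0.072 to 0.27, adjusted p = 0.830).

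Gria2, the subunit that makes AMPA receptors impermeable to calcium, followed at 42.5 ± 6.49 CPM per kilobase. It ranged over 549 to 733 CPM (median 587) in the controls and 522 to 861 CPM (median 702) in fear case. Both the lowest library, fear case 1, and the highest, fear case 6, were in fear case, and the log2 fold change was 0.18 (SE 0.098, interval -0.028 to 0.38, adjusted p = 0.742). Gria3, the third subunit found in hippocampal pyramidal cells, stood at 128 to 171 CPM (median 144) in the controls and 134 to 199.97 CPM (median 160.0) in fear case. Its log2 fold change was 0.16 (SE 0.092, interval -0.031 to 0.35, adjusted p = 0.747), and 2 of 6 fear case libraries exceeded every control. Gria4, which is prominent in interneurons and early in development, was the least abundant of the class at 8.99 ± 1.22 CPM per kilobase. It stood at 50.3 to 63.1 CPM (median 55.8) and 42.2 to 71.3 CPM (median 57.1), with a log2 fold change of 0.024 (SE 0.10).

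Within the class, Gria1 made up 65.8 ± 1.87% of the summed CPM per kilobase in controls and 65.1 ± 1.66% in fear case, and Gria2 21.5 ± 1.39% and 22.3 ± 1.35% (SD, n = 6 per group). Both differences were smaller than the spread between libraries. The share of Gria1 rests on gene length. Gria2 has 15548 merged exon bases against 6043 for Gria1, but coding lengths of 2649 and 2721 bases. The ratio of Gria1 to Gria2 over all 12 libraries was 3.01 per merged exon length, 2.19 per longest transcript and 1.14 per longest coding sequence.

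**Figure D2:**
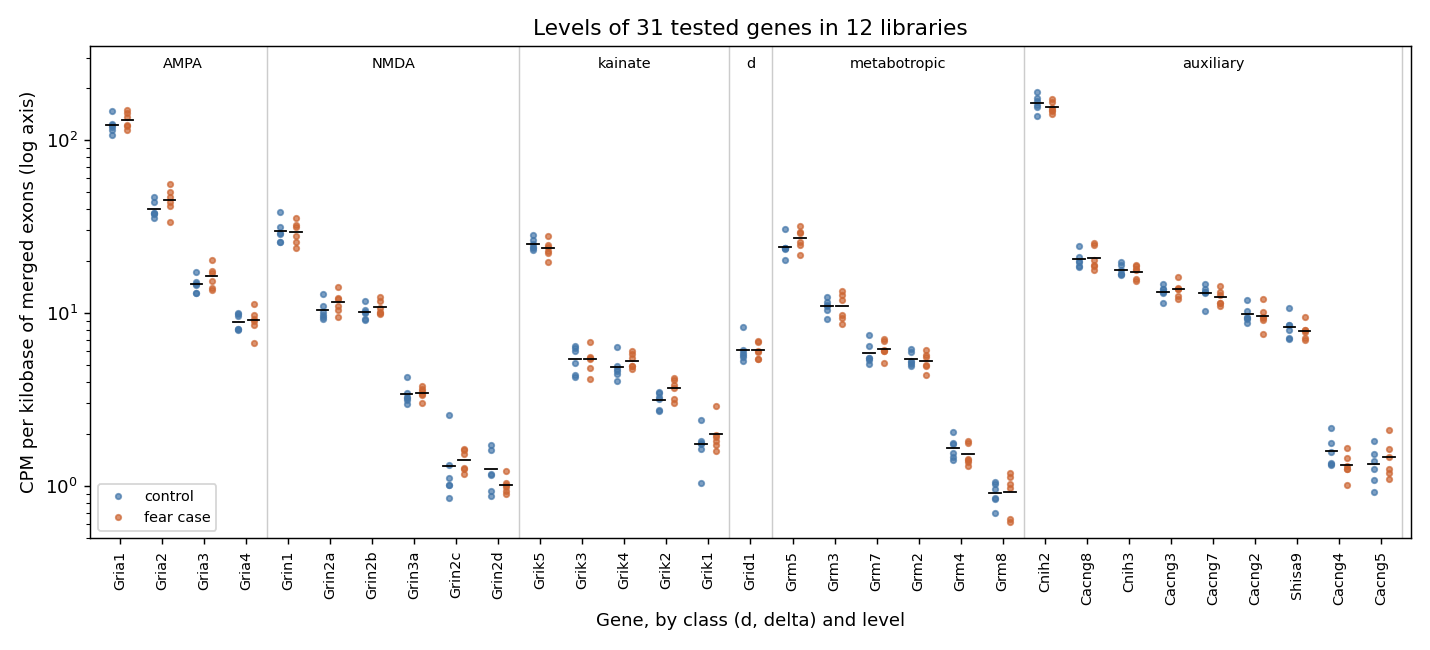
Level of each of the 31 tested genes in CPM per kilobase of merged exons (log axis), one point per library, controls in blue and fear case in orange, with a black line at each group's mean. Cnih2 and Gria1 stand highest, Grm8 lowest, and the 2 groups overlap for every gene.

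Of the 6 tested NMDA receptor genes, 4 had a positive and 2 a negative log2 fold change, and 0 passed. Grin1, the obligatory glycine-binding subunit, was the most abundant at 29.6 ± 4.31 CPM per kilobase. It ranged over 249 to 370.3 CPM (median 279.5) in the controls and 229.7 to 342 CPM (median 288) in fear case, and its log2 fold change was -0.021 (SE 0.10, interval -0.23 to 0.19, adjusted p = 0.982). The highest of all 12 values was in control 1. Exons of Grin1 (chromosome 2, 25291181 to 25319187, minus strand) overlap those of the antisense gene Grin1os over 1307 bases. The sources used here do not give the strand setting of the counting, so how reads over these bases were assigned is not known. Reads that fit both genes may have been left out as ambiguous. Of the 40-base words of the longest coding transcript, 21.9% in Grin1, 14.5% in Grin2a and 9.83% in Grin2d also occurred in a transcript of another annotated gene. For Grin1 that gene was Grin1os. For Grin2a there were 4 such genes, Aoc2, Uty, Gm45177 and Gm7328, and only Aoc2 and Uty are among the counted symbols. How the 14.5% divides between these genes was not determined. For Grin2d the gene was Gm45441, which is not among the counted symbols. In the untested Grin3b the share was 25.4%, with the counted gene Tmem259.

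Grin2a and Grin2b encode the main glutamate-binding subunits of the forebrain, whose ratio shifts toward Grin2a as synapses mature. Grin2a stood at 167 to 229.5 CPM (median 179) in the controls and 169.5 to 253 CPM (median 206) in fear case, with a log2 fold change of 0.14 (SE 0.092, interval -0.046 to 0.34, adjusted p = 0.770). Grin2b stood at 226 to 290.0 CPM (median 251) and 246 to 308 CPM (median 257), with a log2 fold change of 0.095 (SE 0.076, interval -0.062 to 0.25, adjusted p = 0.822). Per kilobase the 2 genes could not be ranked, at 11 ± 1.53 and 10.5 ± 1.01 CPM. Their ratio was 1.03 ± 0.0997 in controls and 1.07 ± 0.0991 in fear case (SD, n = 6 per group), with overlapping ranges of 0.943 to 1.22 and 0.936 to 1.22. Of the summed CPM per kilobase of the NMDA class, Grin2a made up 18.5 ± 0.576% in controls and 19.98 ± 1.02% in fear case, and 5 of 6 fear case values exceeded every control. Grin1 made up 52.8 ± 1.54% and 50.8 ± 2.04%, with 4 fear case values under every control. Shares within a class sum to a whole, so these are not independent, and they were not tested.

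Grin3a, Grin2d and Grin2c were less abundant than Grin1, Grin2a and Grin2b. Grin3a, a subunit that reduces calcium permeability, stood at 41.6 ± 5.63 CPM for control and 42.5 ± 3.26 CPM for fear case. Grin2d, a subunit of interneurons and of the young brain, had the most negative log2 fold change of the members at -0.30 (SE 0.17, interval -0.65 to 0.043, adjusted p = 0.742). Its values were 5.84 to 11.5 CPM (median 7.75) in the controls and 6.01 to 8.07 CPM (median 6.64) in fear case. All 6 fear case values lay inside the range of the controls, whose spread was wider. Grin2c, which is typical of cerebellar granule cells and astrocytes, had 6.61 ± 3.17 CPM for control, where control 1 reached 12.9 CPM, and 7.10 ± 1.05 CPM for fear case.

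Among the kainate receptor genes Grik2 came nearest to a difference. It encodes GluK2, a pore-forming subunit of hippocampal kainate receptors, and stood at 36.1 to 46.4 CPM (median 42.8) in the controls and 40.1 to 55.6 CPM (median 49.5) in fear case. In 4 of 6 fear case libraries it lay above all controls, and fear case 1 and fear case 5 lay among them. The log2 fold change was 0.22 (SE 0.093, interval 0.028 to 0.41), with an unadjusted p of 0.0264 by edgeR's quasi-likelihood test and an adjusted p of 0.613. The unadjusted p was above 0.05 when control 4, control 5, fear case 3 or fear case 6 was left out, at log2 fold changes of 0.18, 0.18, 0.18 and 0.18 (unadjusted p = 0.0671, 0.067, 0.0724 and 0.0599 by edgeR). It was also above 0.05 with a choroid plexus score as a further term, at 0.20 (SE 0.13, unadjusted p = 0.132 by edgeR).

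Grik5, which encodes the high-affinity partner subunit GluK5, was the most abundant of the class at 24.4 ± 2.40 CPM per kilobase. It stood at 119 to 146 CPM (median 128) and 102 to 145 CPM (median 122), with 3 fear case libraries below all controls and a log2 fold change of -0.091 (adjusted p = 0.832, SE 0.077). With the choroid plexus score in the fit it was -0.23 (SE 0.10, unadjusted p = 0.0376 and adjusted p = 0.697 by edgeR), and Grik5 was then the only member below an unadjusted p of 0.05. The ratio of Grik2 to Grik5 per kilobase was 0.125 ± 0.0127 in controls and 0.156 ± 0.0234 in fear case (SD, n = 6 per group). It lay above all controls in 4 of 6 fear case libraries. This ratio was not tested, and the 2 ranges, 0.109 to 0.143 and 0.130 to 0.185, overlapped.

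The remaining kainate subunits showed no larger difference. Grik4, the high-affinity subunit GluK4 typical of CA3 pyramidal cells, stood at 24.2 to 37.7 CPM (median 28) and 28.2 to 35.7 CPM (median 31), with a log2 fold change of 0.13 (adjusted p = 0.820, SE 0.10). Grik3 stood at 38.2 to 57.5 CPM (median 49.9) and 37.4 to 61.3 CPM (median 49.2), with a log2 fold change of -0.0044 (SE 0.12, interval -0.24 to 0.24). Grik1, a subunit of interneurons, was the least abundant at 1.86 ± 0.449 CPM per kilobase and stood at 7.01 to 16.2 CPM (median 11.8) and 10.7 to 19.4 CPM (median 12.6). Its log2 fold change of 0.19 had a wide interval of -0.15 to 0.54. The delta receptor gene Grid1, an adhesion-type receptor of the synapse, stood at 31.3 to 49.5 CPM (median 34.5) in the controls and 32.4 to 41 CPM (median 35.8) in fear case. Its log2 fold change was -0.011 (adjusted p = 0.992, SE 0.10), and control 1 alone lay well above all other libraries.

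Of the 6 metabotropic receptor genes, 4 had a positive and 2 a negative log2 fold change, and 0 passed. Grm5, the Gq-coupled postsynaptic receptor mGlu5 that drives local protein synthesis and long-term depression, was the most abundant at 25.6 ± 3.65 CPM per kilobase. It ranged over 208 to 313 CPM (median 242) in the controls and 222 to 324 CPM (median 281) in fear case, with 1 fear case library above all controls. The log2 fold change was 0.16 (SE 0.094, interval -0.036 to 0.35, adjusted p = 0.756).

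Grm2 and Grm3 encode the Gi-coupled receptors mGlu2, typical of dentate granule cells and their mossy fibres, and mGlu3, found in neurons and astrocytes. Grm3 stood at 28 to 37.6 CPM (median 33.7) and 26.3 to 40.8 CPM (median 33.1), and Grm2 at 24.2 to 30.2 CPM (median 25.7) and 21.5 to 30.0 CPM (median 25.7). Their log2 fold changes were 0.0026 (SE 0.11) and -0.039 (SE 0.094). The ratio of Grm5 to the sum of Grm2 and Grm3 was 1.49 ± 0.225 in controls and 1.67 ± 0.132 in fear case per kilobase (SD, n = 6 per group). The difference was smaller than the SD of the controls and larger than that of fear case. The ranges, 1.24 to 1.84 and 1.53 to 1.89, overlapped, and the ratio was not tested. Grm7, the low-affinity presynaptic autoreceptor, had 34.7 ± 5.42 CPM for control and 36.4 ± 4.06 CPM for fear case. The presynaptic receptors Grm4 and Grm8 were near the low end of the list at 1.59 ± 0.229 and 0.918 ± 0.187 CPM per kilobase, and their log2 fold changes were -0.13 (SE 0.13) and 0.037 (SE 0.16). Grm8, the scarcest of this class, ranged over 6.88 to 10.5 CPM (median 9.01) in the controls and more widely, 6.13 to 11.7 CPM (median 9.86), in fear case.

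Of the 9 auxiliary subunit genes, 3 had a positive and 6 a negative log2 fold change, and 0 passed. Cnih2, a cornichon that slows AMPA receptor deactivation and helps export from the endoplasmic reticulum, had the highest level of all 32 genes at 159.5 ± 15.2 CPM per kilobase. It ranged over 189 to 259 CPM (median 225) in the controls and 193 to 237 CPM (median 207) in fear case, with a log2 fold change of -0.086 (SE 0.076, interval -0.24 to 0.071, adjusted p = 0.840). Its exons overlap those of Yif1a on the opposite strand over 14 bases. The related Cnih3 stood at 48.8 ± 3.53 CPM and 47.8 ± 4.15 CPM.

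Cacng8, which encodes TARP gamma-8, the principal TARP of the hippocampus, was the most abundant TARP gene at 20.7 ± 2.67 CPM per kilobase. It stood at 43.2 to 57.4 CPM (median 46.6) in the controls and 41.7 to 59.4 CPM (median 45.9) in fear case, with a log2 fold change of 0.034 (SE 0.096, interval -0.17 to 0.23). Cacng2, the founding TARP stargazin, stood at 48.2 to 65.7 CPM (median 51.8) and 41.9 to 66.8 CPM (median 51.9), with a log2 fold change of -0.027 (SE 0.096). The ratio of Cacng8 to Cacng2 was 2.10 ± 0.310 in controls and 2.20 ± 0.376 in fear case per kilobase (SD, n = 6 per group). It was 0.698 over all libraries when coding lengths replaced merged exons, so their order depends on the length used.

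Cacng3 and Cacng7, other TARP genes, lay between these 2 at 13.5 ± 1.24 and 12.7 ± 1.38 CPM per kilobase. Shisa9, which changes AMPA receptor desensitisation at dentate synapses, stood at 43.6 ± 6.88 CPM for control and 41.4 ± 4.68 CPM for fear case. Cacng4, a TARP gene of glia and the young brain, had the second most negative log2 fold change of the members. It stood at 4.73 to 7.69 CPM (median 5.20) in the controls and 3.61 to 5.89 CPM (median 4.57) in fear case, with 4 fear case libraries below all controls and a log2 fold change of -0.26 (SE 0.17, interval -0.62 to 0.094, adjusted p = 0.784). Its counts ran from 69 to 207 per library, so counting error is a larger part of its spread than for Gria1 with 12934 to 36354. Cacng5, another TARP gene, was as scarce at 1.40 ± 0.338 CPM per kilobase and stood at 3.56 to 6.93 CPM (median 5.08) and 4.21 to 8.11 CPM (median 5.22).

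The make-up of the whole set was compared by class. AMPA subunits took 31.6 ± 1.48% of the summed CPM per kilobase in controls and 33.7 ± 1.80% in fear case (SD, n = 6 per group). Auxiliary subunits took 42.6 ± 2.53% and 40.3 ± 2.58%, NMDA receptors 9.56 ± 0.673% and 9.64 ± 0.611%, metabotropic receptors 8.35 ± 0.418% and 8.68 ± 0.598%, and kainate receptors 6.86 ± 0.236% and 6.70 ± 0.397%. Grid1 took 1.04 ± 0.114% and 1.02 ± 0.0649%. For all 6 classes the ranges of the groups overlapped. Within classes, the share also had 4 of 6 fear case values above every control for Grik2 and Cacng3, and 4 below every control for Grin2d, Grik5 and Grm2. No share within a class separated the groups completely.

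**Figure D3:**
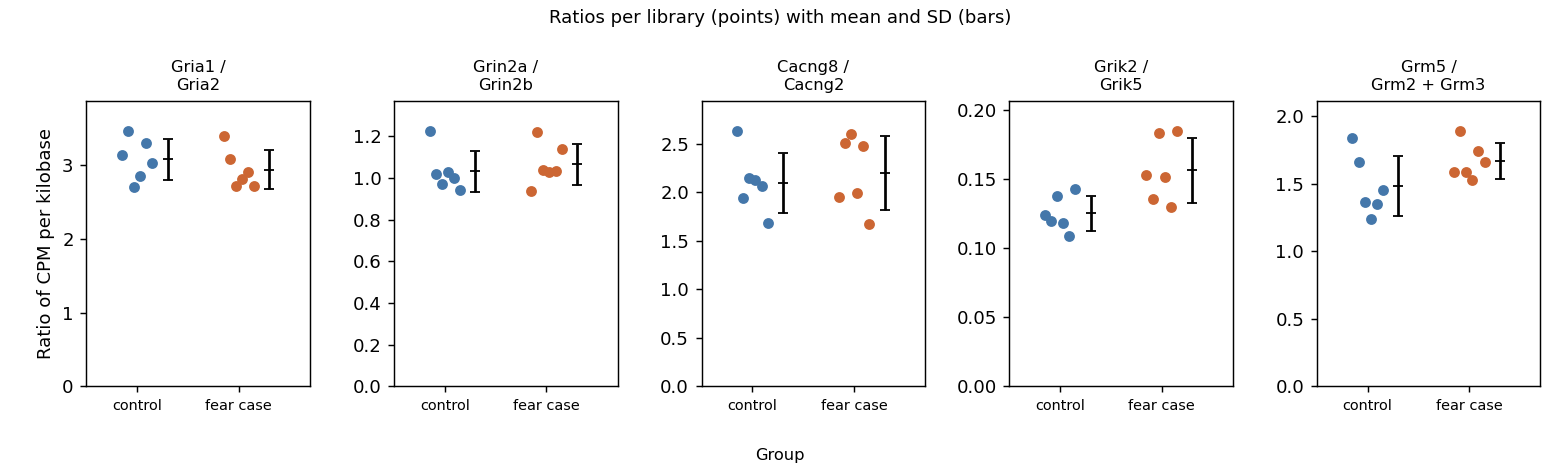
Ratios of CPM per kilobase in each library for 5 pairs or sums of genes (vertical axes start at 0; each panel has its own scale), controls in blue and fear case in orange, with mean and SD beside the points. The ranges of the groups overlap in every panel; for Grik2 over Grik5, 4 of 6 fear case points lie above all controls.

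Single libraries stood apart across many members at once. Control 1 was the highest of the 6 controls in 20 of the 31 members and the lowest in 0, and its median deviation from the control mean was 0.25 on the log2 CPM scale. Over all genes tested that deviation was -0.0064. TMM scaling and centring on the group mean hold the median over all genes near 0 in every library. Its closeness to 0 therefore does not show that a shift is particular to the members. How often each library was the highest or lowest over all genes was not counted. Fear case 1 was the lowest of its group in 19 of 31 members and the highest in 0, with a median deviation of -0.19, against 0.0013 over all genes. Fear case 6 was the highest in 14 members, with a median deviation of 0.20, against 0.018 over all genes. Shared shifts were not confined to these libraries. Control 2 was the lowest control in 13 members and control 4 in 10, with median deviations of -0.083 and -0.13. Fear case 2 lay above its group's median in 29 members and fear case 5 in 5, with median deviations of 0.11 and -0.13. In control 1 all 4 AMPA, all 6 NMDA and all 5 kainate genes lay above the control mean, as did 4 of 6 metabotropic and 8 of 9 auxiliary genes. In fear case 1 none of the AMPA, NMDA, kainate and metabotropic genes lay above its group's mean, while 3 of 9 auxiliary genes did.

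The marker lists moved less uniformly. Excitatory neuron markers summed to 5764 CPM in control 1, inside the control range, and to 5626 CPM in fear case 1, near the fear case median of 5617. In fear case 6 they were at their lowest, 4913 CPM. Astrocyte markers had their highest sum in control 1, 803 CPM, and oligodendrocyte markers their lowest in fear case 1, 1347 CPM, and their part in the members' values was not tested. The median deviation of the partner genes described next was 0.042 in control 1 and -0.047 in fear case 1. The group differences moved when control 1, fear case 1 or fear case 6 was left out. These 3 libraries were picked for their levels in the same members, so the direction of each shift follows from that choice. Without control 1, 8 members had an unadjusted p under 0.05 (Gria1, Gria2, Gria3, Grin2a, Grin2c, Grik2, Grik4 and Grm5, all positive), where 7.06% of all genes did, and the members' median log2 fold change was 0.079. Without fear case 1 there were 5 (Gria2, Gria3, Grin2a, Grik2 and Grm5), where 7.29% of all genes did, with a median of 0.073. Without fear case 6 there were 0, where 8.28% of all genes did, with a median of -0.010. In each of these 3 settings 0 members passed after adjustment, with lowest adjusted p of 0.514, 0.453 and 0.624.

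**Figure D4:**
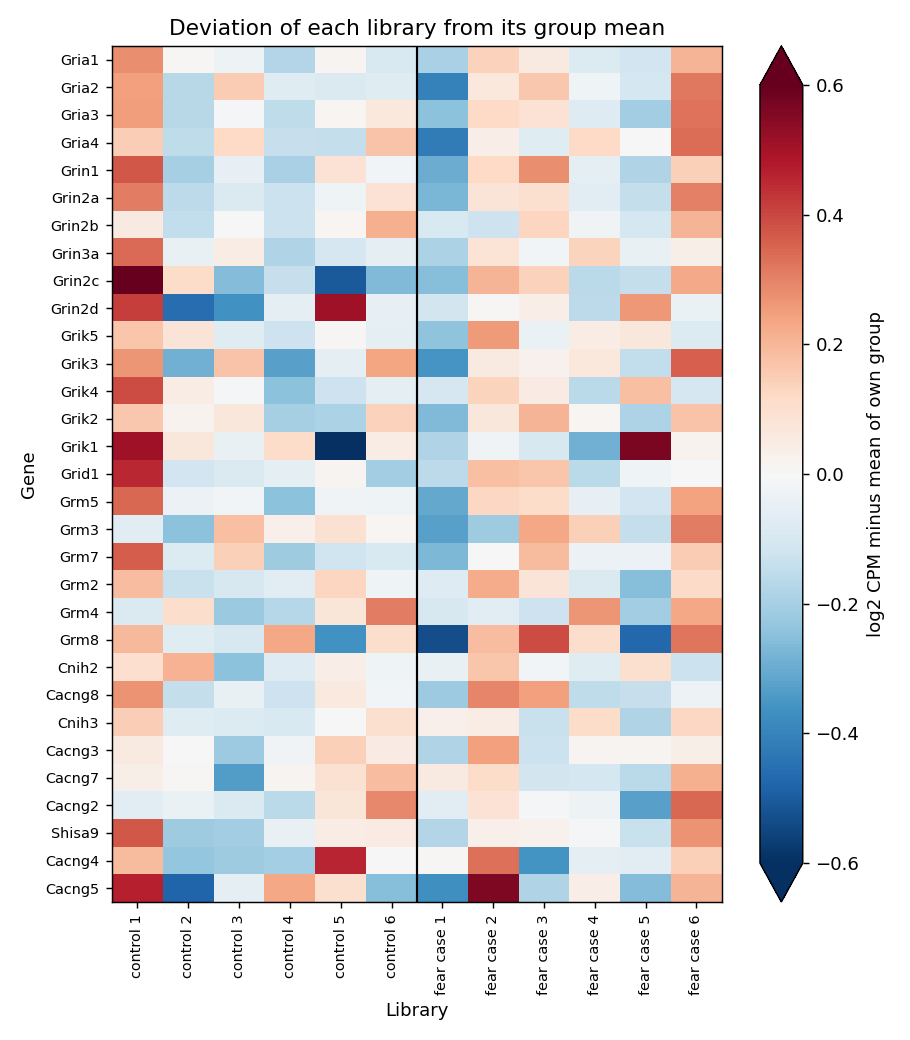
Log2 CPM of each tested gene (rows, by class and level) in each library (columns) minus the mean of that library's own group, red above and blue below, with the colour scale ending at 0.6. The column of control 1 is red and that of fear case 1 blue for most genes, with median deviations of 0.25 and -0.19, and fear case 6 is red for most.

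Genes whose products bind, traffic, modify or supply these receptors were read from the same fit. Of 81 partner genes 77 were tested and 0 passed, and 5, or 6.49%, had an unadjusted p under 0.05, near the 7.14% of all genes. Their median log2 fold change was 0.028, with 44 positive and 33 negative. None of the 20 scaffold genes, among them the Dlg, Shank and Homer families, had an unadjusted p under 0.05. The scaffold gene Homer1 stood at 188 to 237 CPM (median 219) in the controls and 214 to 248 CPM (median 243) in fear case (adjusted p = 0.742, log2 fold change 0.12, SE 0.069). None of the 13 kinase and phosphatase genes and none of the 11 tested genes of glutamate transport and metabolism had an unadjusted p under 0.05.

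The 3 lowest p-values among the partners belonged to 2 further AMPA receptor auxiliary genes and 1 synaptic adhesion gene. Shisa8, a relative of Shisa9, stood at 1.91 to 2.51 CPM (median 2.10) in the controls and 0.426 to 1.42 CPM (median 0.935) in fear case. Every fear case library was under every control, at 10 to 50 counts per library. The log2 fold change was -1.17 (adjusted p = 0.180, SE 0.30 with edgeR). DESeq2 called it, at an adjusted p of 0.0241, and limma-voom did not, at 0.0896.

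Gsg1l, which encodes an auxiliary subunit that restrains AMPA receptor currents, stood at 19.9 to 26.3 CPM (median 22.5) and 14.7 to 23.3 CPM (median 16.3), and 5 of 6 fear case values were under every control. The log2 fold change was -0.37 (adjusted p = 0.355, SE 0.12). Without fear case 6 it was -0.48 (SE 0.10, adjusted p = 0.0181) and was called. After a choroid plexus score was added to the fit it was -0.27 (adjusted p = 0.730). Shisa8 then stood at -1.41 (adjusted p = 0.622). Lrrtm2, a postsynaptic adhesion protein that stabilises AMPA receptors, stood at 48.1 to 58.6 CPM (median 53.1) and 53.4 to 74.7 CPM (median 62.4), and 5 of 6 fear case values exceeded every control (adjusted p = 0.404, log2 fold change 0.24, SE 0.078).

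Nrxn3, a presynaptic adhesion gene, reached 0.17 on the log2 scale (adjusted p = 0.602, SE 0.068) and Shisa6, another AMPA receptor auxiliary gene, 0.15 (adjusted p = 0.739, SE 0.081). Olfm2, a secreted olfactomedin that binds AMPA receptors, had -0.32 (adjusted p = 0.627, SE 0.14), and Nptxr, the receptor of the AMPA receptor-clustering pentraxins, had -0.17 (adjusted p = 0.739, SE 0.095). Of these 4, Nrxn3 and Olfm2 were below an unadjusted p of 0.05, and Shisa6 and Nptxr were not.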

How the data were processed

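Polyribosomal RNA of mouse hippocampus was sequenced as 40 bp read pairs, per the labels' protocols. The authors deposited raw counts per gene symbol, 1 file per library, not normalized. HTSeq, TopHat, Bowtie, cutadapt and the mm10 build are listed in the submitters' processing notes. The sources used here give no versions, annotation or strand setting. Summary lines of the counter were left out of library sizes. Of counts assigned to a gene, to none or to several, 25.5% to 33.3% fell on no gene. Alignments that the counter listed as not unique, 67.8 M to 115 M per library, are outside this share.

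Groups follow the sample group label. Counts were fitted in R 4.3.3 with edgeR 4.0.16: filterByExpr (minimum count 10, minimum total 15), TMM, estimateDisp, glmQLFit and glmQLFTest, with Benjamini-Hochberg adjustment over 14564 genes and a gene was called below an adjusted p of 0.05. The SE is the log2 fold change over the square root of F, and 95% intervals use the total degrees of freedom. Log2 CPM uses a prior count of 2. DESeq2 1.42.0 and limma 3.58.1 were alternatives. The test was first tested on simulated data. Exon lengths came from GENCODE vM21 (GRCm38, the assembly of mm10), where 23376 of 24421 symbols and all 32 members were found. No protein table was used, so a planned comparison of proteins was not made. Receptor genes outside the list are not reported here by name.

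The members, gene lists, named genes and tests were chosen with earlier results of these data known. Named were all members, with the range in both groups for the 8 of lowest p, the 2 most abundant and the least abundant of each class and those in ratios, plus 4 partner genes of lowest p in each direction. Same-numbered libraries of the groups share only a number.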

Additional observations from a re-analysis of the deposited data

Results flagged for a closer look

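In each group of 6 libraries, the gap between the most extreme library and its nearest neighbour was set against the whole range of the group (Dixon's ratio, 95% critical value). Of 72 such groups, for the 31 tested members on the log2 CPM scale and 5 ratios, 4 exceeded it, where about 1 in 20, or 3.6, would by chance. Grik1 stood at 19.4 CPM in fear case 5, against 13.3 CPM in the next library and 10.7 CPM in the lowest of that group. Grid1 stood at 49.5 CPM in control 1, against 36.5 CPM in the next control. Cacng7 stood at 25.1 CPM in control 3, against 31.8 CPM in the next lowest control. The ratio of Grin2a to Grin2b per kilobase was 1.22 in control 1, against 1.03 in the next control.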

How the results depend on the processing

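Under the 22 alternatives (other scaling factors, filters and tests, a replicate block, a choroid plexus covariate and each library left out), 0 members were called in every one. The count of all genes called, 15, became 37 with any count kept, 59 with DESeq2, 5 with a choroid plexus covariate, and 9 to 128 with 1 library left out (128 without fear case 6, 9 without control 3 or fear case 2). Partner genes called numbered 1 with DESeq2 (Shisa8), 0 to 1 with 1 library left out (Gsg1l without fear case 6) and 0 otherwise. With the replicate number as a block, 18 genes and 0 members were called. Same-numbered libraries deviated from their group means with correlations of -0.17 to 0.047, and 2 of 6 controls correlated best with their own number, so the numbers are not read as pairs.

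The log2 fold change kept its sign under all alternatives for 17 of 31 members, and the other 14, none of them called in any setting, turned sign in at least 1. Of the 17, 16 moved by over 1.5 times in at least 1 alternative, all but Grik2, and over all alternatives they ran from 0.054 to 0.16 (Gria1), 0.11 to 0.24 (Gria2), 0.086 to 0.23 (Gria3), 0.077 to 0.21 (Grin2a), 0.050 to 0.17 (Grin2b), 0.0075 to 0.41 (Grin2c), -0.38 to -0.19 (Grin2d), 0.058 to 0.35 (Grik1), 0.083 to 0.22 (Grik4), -0.23 to -0.049 (Grik5), -0.18 to -0.060 (Grm4), 0.11 to 0.24 (Grm5), 0.030 to 0.15 (Grm7), -0.33 to -0.16 (Cacng4), -0.13 to -0.023 (Cacng7) and -0.17 to -0.040 (Cnih2). With 1 library left out the 14 ran from -0.053 to 0.094 (Gria4), -0.080 to 0.065 (Grin1), -0.0033 to 0.11 (Grin3a), -0.087 to 0.057 (Grik3), -0.053 to 0.097 (Grid1), -0.085 to 0.0082 (Grm2), -0.067 to 0.060 (Grm3), -0.042 to 0.13 (Grm8), -0.11 to 0.036 (Cacng2), -0.0083 to 0.076 (Cacng3), -0.00034 to 0.24 (Cacng5), -0.028 to 0.095 (Cacng8), -0.057 to 0.0049 (Cnih3) and -0.14 to 0.012 (Shisa9). With the choroid plexus covariate the values were -0.0038 (Grin3a), 0.065 (Grik3), -0.045 (Grm8), 0.026 (Cacng2), -0.043 (Cacng3), -0.072 (Cacng8) and 0.010 (Shisa9). Grik3 stood at 0.0069 with limma-voom. Grm3 stood at -0.0042 with upper-quartile factors, -0.0061 with limma-voom and -0.0098 with the replicate block. The cause was not tested.

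Level comparisons depend on gene length. With the longest transcript in place of merged exons, the class shares were 13.9% (NMDA), 0.890% (delta) and 35.9% (auxiliary). With the longest coding sequence they were 12.1% (NMDA), 5.10% (kainate), 0.667% (delta) and 6.37% (metabotropic). By transcript and by coding length in turn, the ratio of Gria1 to Gria2 was 2.19 and 1.14, of Grin2a to Grin2b 1.24 and 0.766, of Cacng8 to Cacng2 2.65 and 0.698, and of Grm5 to Grm2 plus Grm3 1.98 and 3.21. That of Grik2 to Grik5 was 0.389 by coding length. Grm8, the lowest tested gene per merged exon length, stood above Grin2c and Grin2d by either other length. Grin2c, Grin2d, Cacng4 and Cacng5 had the lowest median counts of the tested members, at 139.5, 157, 106.5 and 110. The part of depth in their spread was not tested. Grin3b could not be tested.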
